A study of Rattus norvegicus with 8 samples.

Results

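The HOX, DLX, SOX, FOX, KLF, GATA, TBX, PAX, IRX, LHX, MEIS, SP and PITX families of developmental transcription factors, and the homeobox family of Six3 and Six5, were examined in the enamel organ of the rat incisor, at the secretory and the maturation stage of enamel formation. Members were chosen by gene symbol on the array, and the rule uses no signal. The symbols gave 127 of the 22523 probes, for 124 genes in 14 families, because Foxa2, Irx1 and Sox9 had 2 probes each. Of the DLX genes the choice covered only Dlx1, Dlx4 and Dlx6, and only Dlx1 was named on the array by such a symbol. Of the PITX genes it covered Pitx1 and Pitx3.

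The samples came from 4 male rats aged 4 weeks, labelled as Wistar and given as Wistar Hannover in the methods, and each rat gave 1 secretory-stage and 1 maturation-stage sample of RNA from microdissected enamel organs. The 8 samples were read on 8 RatRef-12 v1 BeadChip arrays, 4 for each stage. For 3 maturation samples (2, 3 and 4) the source field gives the secretory stage, whereas title, description and tissue field give maturation. The latter were followed, and on all 4 maturation-stage arrays the Klk4 probe detected in both stages, for the protease of maturation-stage ameloblasts, lay between 13.12 and 13.45 (log2) against 5.14 to 6.47 on the secretory-stage arrays. Enam, the gene of the secretory-stage matrix protein enamelin, lay between 11.94 and 12.03 in the secretory stage, and at 9.08, 5.17, 5.53 and 8.22 on maturation arrays 1 to 4, so that maturation samples 1 and 4 held more of a secretory transcript than samples 2 and 3. The dissected organ also holds cells other than ameloblasts. In such bulk samples, fewer cells of a type and less RNA per cell cannot be told apart.

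Transcription factors of these families bind DNA through a domain shared by the family (a homeodomain, an HMG box, a forkhead, a T-box, a paired domain or zinc fingers), and many of them lay down where a structure forms or which fate a cell takes. In teeth, PITX, DLX, LHX, PAX and SP factors are known from the early patterning of the dental epithelium and mesenchyme. Ameloblasts, the enamel-forming epithelial cells, first secrete the enamel matrix and later, at the maturation stage, remove its proteins and transport mineral ions.

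All values are normalized signals on the log2 scale, and differences are maturation minus secretory. A probe was taken as detected on an array at a detection p below 0.05, and as called at an adjusted p below 0.05 (limma, Benjamini-Hochberg adjustment over all 22523 probes) with a fold change of at least 1.8, which is 0.848 on the log2 scale. The fit was unpaired, so p-values rest on the spread among the 4 arrays of a stage, each from a different rat. In that spread, differences between rats, dissections and arrays cannot be told apart. Summed over probes, the raw signal of an array was 13355073 to 16122665 in maturation and 11881691 to 12046793 in secretion, with 11164 to 11450 and 10667 to 10941 probes detected. With 4 arrays a stage, their number limits the precision.

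Most members gave little or no signal in the enamel organ. Of the 127 probes, 67 were detected on no array, 60 on at least 1 and 37 on all 8. Detection on at least 1 array thus reached 47.2% of the members, against 60.0% of all probes on the array. The 67 undetected members had log2 signals between 4.3 and 4.97, where the lowest signal of any detected probe on an array lay between 4.93 and 5.06, so that values in that range bound a level and do not measure it. A maturation-stage array detected 50 to 51 members and a secretory-stage array 43 to 49.

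**Figure D1:**
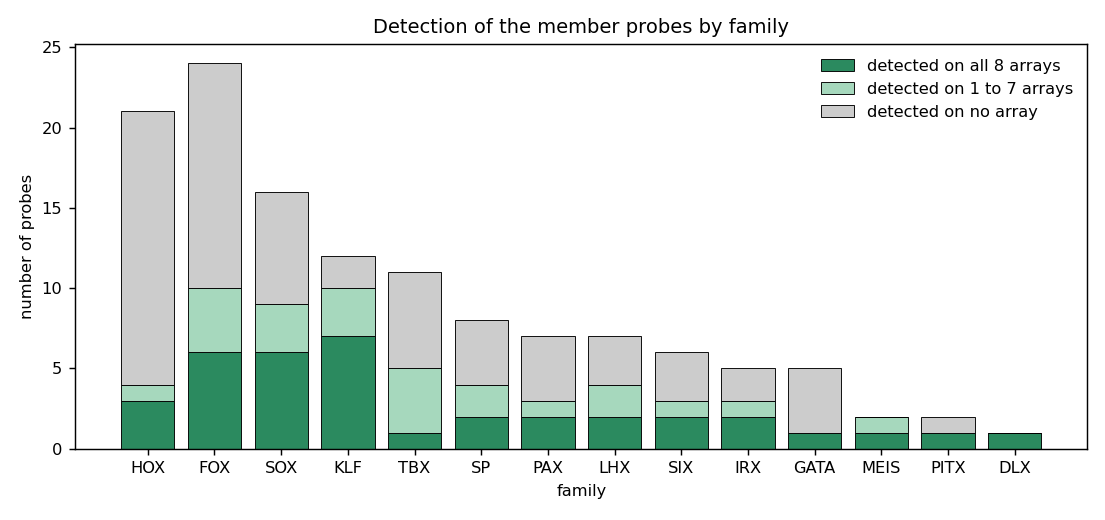
Number of member probes (vertical axis) in each of the 14 families (horizontal axis), divided into probes detected on all 8 arrays, on 1 to 7 arrays and on no array. The HOX family had 17 of its 21 probes undetected throughout, whereas 7 of the 12 KLF probes were detected on all 8 arrays.

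Families differed in how much of them was detected. Of the KLF probes, 10 of 12 were detected on at least 1 array, and 9 of 16 SOX, 10 of 24 FOX, 5 of 11 TBX, 4 of 8 SP, 4 of 7 LHX, 3 of 7 PAX and 3 of 5 IRX probes. In the HOX family 4 of 21 probes were detected and in the GATA family 1 of 5. The Dlx1 probe, the 2 MEIS probes and 1 of the 2 PITX probes were also detected.

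Between the stages, 9 members were called, 6 higher and 3 lower in maturation. That is 7.09% of the members, and the share over all probes was 7.75% in either direction, 4.6% higher and 3.15% lower, so that the members as a whole were called about as often as the array at large. The members that fell were Lhx6, Pitx1 and Klf4. The members that rose were Klf5, Irx3, Tbx15, Klf9, Foxo1 and Meis3. At an adjusted p below 0.05 and any fold, 17 members were higher and 11 lower, against 12.8% higher and 14% lower of all probes. The 4 maturation values lay wholly above or below the 4 secretory values in 28 members (22.0%), against 27.7% of all probes. Among the 60 members detected on at least 1 array, 9 were called (15.0%), and among all probes so detected 12.9%. The median log2 fold change of the 127 members was 0.02 and that of all probes -0.01.

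**Figure D2:**
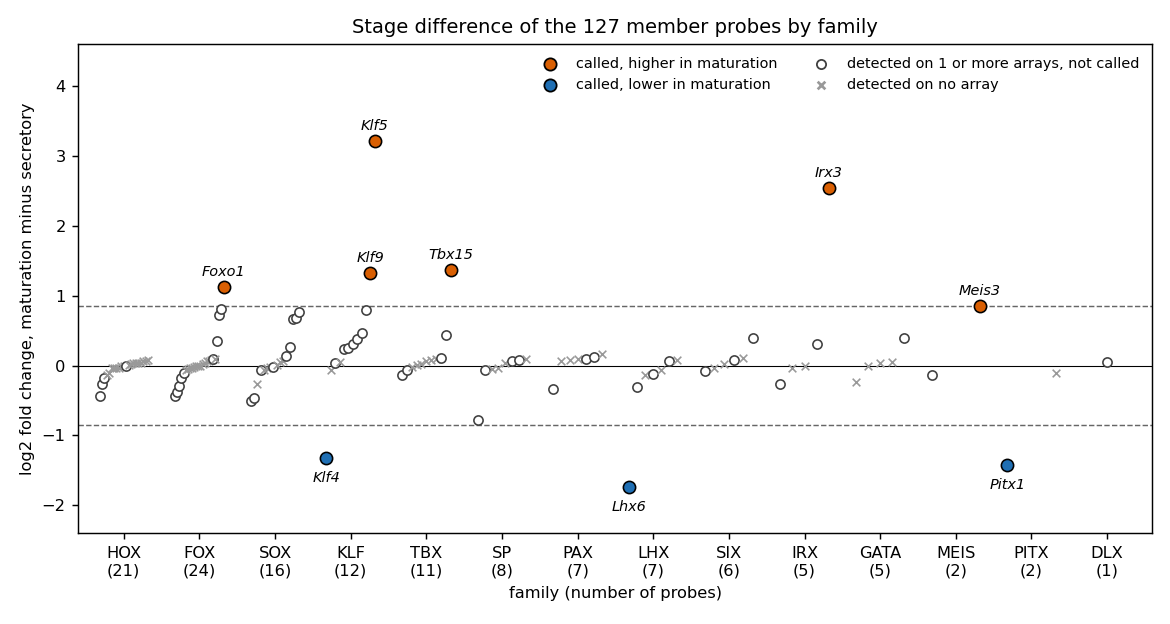
Log2 fold change (maturation minus secretory, vertical axis) of each of the 127 member probes, by family (horizontal axis, with the number of probes). Filled points are the 9 called members, open circles other members detected on 1 or more arrays, crosses members detected on no array, and dashed lines the 1.8-fold threshold; Klf5 and Irx3 lie highest and Lhx6 lowest.

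The call depended on the scaling for some members. When arrays were scaled to a common median in place of quantile normalization, the median log2 fold change of probes detected on all 8 arrays moved from -0.07 to 0.2, and the share of called probes that were higher in maturation moved from 59.3% to 77.6%. Of the members, 14 were then called, 11 of them higher and 3 lower, where quantile normalization gave 6 and 3. The 5 added members were Foxp1, Klf7, Sox17, Sox18 and Foxd4.

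**Figure D3:**
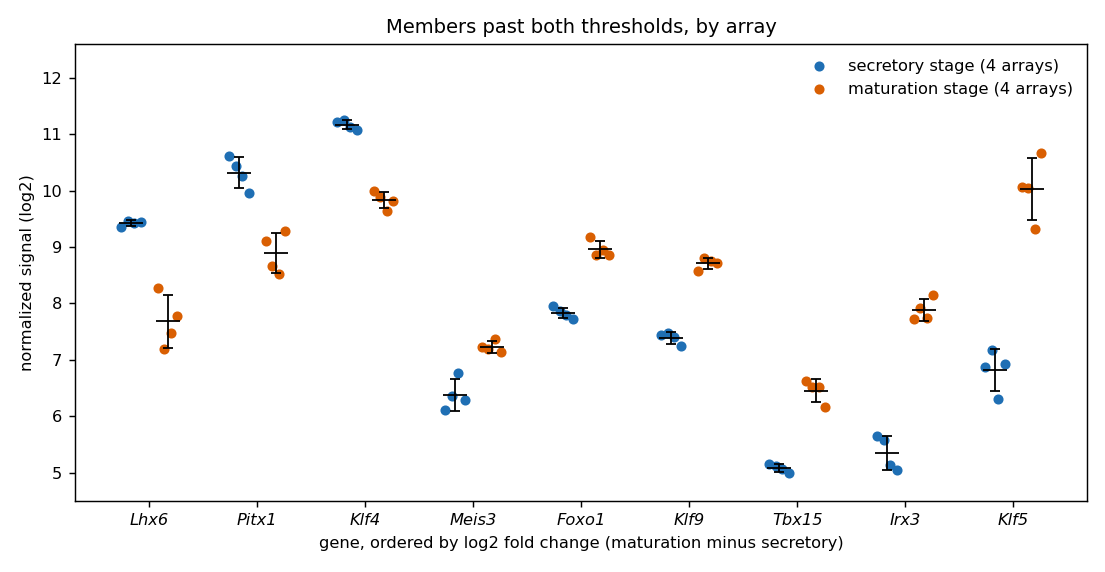
Normalized signal (log2, vertical axis) of the 9 called members on each of the 4 secretory-stage (blue) and 4 maturation-stage (orange) arrays, with the genes ordered from the largest fall to the largest rise; bars give the mean and SD of 4 arrays. The stages do not overlap for any of the 9 genes, and the gap is narrowest for Meis3.

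The KLF family, zinc-finger factors that recognise CACCC and related GC-rich sequences, held 3 of the 9 called members, and they moved in opposite directions. These were 25.0% of its 12 probes, against 7.75% of all probes. Of the 12, 10 were detected on at least 1 array, and of all probes so detected 12.9% were called. Klf5, known from the growth of gut and skin epithelium, had the largest rise of any member. Its log2 signal was 10.07, 10.05, 9.32 and 10.66 on maturation arrays 1 to 4 and 6.88, 7.17, 6.30 and 6.92 on secretory arrays 1 to 4. Every maturation value exceeded every secretory value by more than 2 on the log2 scale. The rise was 9.23-fold (log2 fold change 3.21, SE 0.270, adjusted p = 1.76e-05). It was 2.87 with an offset of 50 and 2.47 without background correction.

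Klf4, known from the skin barrier and the terminal differentiation of epithelia, fell. It measured 9.99, 9.89, 9.64 and 9.82 in the maturation stage and 11.21, 11.26, 11.12 and 11.08 in the secretory stage. The values were tight within each stage, and the groups lay far apart. The maturation-stage signal was 39.7% of the secretory-stage signal, a 2.52-fold fall (log2 fold change -1.33, SE 0.0833, adjusted p = 2.53e-06). Klf9, a factor induced by steroid and thyroid hormones, was at 8.57, 8.80, 8.76 and 8.72 in maturation and at 7.44, 7.47, 7.40 and 7.24 in secretion. Its rise was 2.51-fold (log2 fold change 1.33, SE 0.0751, adjusted p = 1.37e-06).

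The stretch of 250 bases upstream of the annotated start is shown for the KLF members with the largest rise and the fall, and for Irx3, the member with the next largest rise after Klf5. The sequences are those of RefSeq on the GRCr8 assembly, read 5′ to 3′ on the strand of the gene, and capitals mark CACCC on either strand (GGGTG on the strand shown), the core of the sequence that KLF proteins bind.
Klf5 (chr15:82471831-82472080, plus strand): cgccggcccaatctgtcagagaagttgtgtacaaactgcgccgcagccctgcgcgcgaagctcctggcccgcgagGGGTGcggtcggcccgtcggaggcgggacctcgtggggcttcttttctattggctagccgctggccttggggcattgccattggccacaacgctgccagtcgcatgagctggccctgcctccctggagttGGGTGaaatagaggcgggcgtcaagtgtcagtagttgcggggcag
Klf4 (chr5:75078593-75078842, minus strand): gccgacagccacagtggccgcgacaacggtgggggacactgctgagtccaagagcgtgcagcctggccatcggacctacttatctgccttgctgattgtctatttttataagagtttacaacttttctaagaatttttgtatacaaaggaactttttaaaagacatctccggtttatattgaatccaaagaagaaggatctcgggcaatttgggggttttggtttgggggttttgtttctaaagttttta
Irx3 (chr19:31384868-31385117, plus strand): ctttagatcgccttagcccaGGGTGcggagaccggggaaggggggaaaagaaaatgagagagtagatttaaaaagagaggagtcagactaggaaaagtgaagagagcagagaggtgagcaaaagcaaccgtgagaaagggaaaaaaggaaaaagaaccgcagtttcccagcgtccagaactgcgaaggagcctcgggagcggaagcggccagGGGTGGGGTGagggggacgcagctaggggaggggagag
The Klf5 stretch held 2 matches and the Irx3 stretch 3, while the Klf4 stretch held 0. The GC box GGGCGG, searched on both strands, was in none of the 3 stretches, and neither word contains the other on either strand. CACCC occurred upstream of 49.2% of all 33469 starts in the table and of 63 of the 86 starts found for member genes (73.3%), and GGGCGG upstream of 30.5% and 46 of 86 (53.5%). Of the other called members, the stretches of Foxo1, Tbx15 and Lhx6 held 0 matches, that of Klf9 1 and both entries of Meis3 1 each, so that members that rose had from 0 to 3. Pitx1, the remaining called member, was not read. Such matches describe the letters in the window, not binding. Of the other called members, the same table places Klf9 and Meis3 on chromosome 1, Foxo1 and Tbx15 on chromosome 2 and Lhx6 on chromosome 3.

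Other KLF members were higher in maturation by less than 1.8-fold. Klf7 lay at 9.21, 9.21, 8.98 and 8.93 in maturation and at 8.16, 8.60, 8.48 and 7.95 in secretion (log2 fold change 0.79, adjusted p = 0.00225). The groups did not overlap, and without secretory array 2 the difference was 0.89 and passed the fold threshold. Klf6 differed by 0.47 (adjusted p = 0.000771), again without overlap. Klf10 (0.38, adjusted p = 0.065; 0.0124 with the rat as a block) and Klf2 (0.31, adjusted p = 0.182) did not pass. Klf3, Klf15 and Klf16 were close to the background, and Klf1, the factor of red cell precursors, and Klf12 were detected nowhere. None of the 4 probes of the erythroid marker list was called, with Alas2 at -1.07 (adjusted p = 0.0578); without secretory array 1 Alas2 was at -1.33 (adjusted p = 0.0204) and was called.

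The SP factors share the zinc fingers of the KLF family. Sp6, also called epiprofin, is required for ameloblast differentiation and enamel. It was detected on no maturation-stage array (4.75, 4.59, 4.88 and 4.53) and on 3 secretory-stage arrays (5.68, 5.83, 4.98 and 5.40). The secretory values were all higher, but array 3 exceeded the highest maturation value by a small margin only. The Sp6 signal was at least 1.44-fold lower in maturation (fitted log2 fold change -0.78, SE 0.170, adjusted p = 0.00662), below the fold threshold. Without secretory array 3 the fitted difference was -0.96 and was called, and without maturation arrays 1 and 4 it was -0.69 (adjusted p = 0.059). Sp7, the osteoblast factor osterix, was detected on no array, as were Sp2, Sp4 and Sp5. Sp3, which is expressed in most tissues, was at 7.22 to 7.72 in maturation and 7.44 to 7.94 in secretion, with a difference of -0.07 and a 95% interval from -0.39 to 0.24. The intervals are those of the limma fit for each probe alone, without adjustment.

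The other members that fell past the fold threshold were homeodomain factors. Lhx6, a LIM-homeodomain factor expressed in the developing jaw and teeth, had the largest fall. Its signal was 9.35, 9.47, 9.42 and 9.44 in the secretory stage and 8.28, 7.19, 7.48 and 7.77 in the maturation stage. The secretory arrays were nearly identical, whereas maturation array 1 was clearly above arrays 2 and 3. The fall was 3.34-fold (log2 fold change -1.74, SE 0.194, adjusted p = 0.000108). Pitx1, known from hindlimb identity and the oral and dental epithelium, was at 10.61, 10.43, 10.26 and 9.96 in secretion and 9.11, 8.66, 8.52 and 9.28 in maturation. The groups did not overlap, and maturation arrays 1 and 4 were the higher ones. The fall of Pitx1 was 2.69-fold (log2 fold change -1.43, SE 0.189, adjusted p = 0.000337).

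For both genes the higher maturation values came from samples 1 and 4, those with the most Enam. Without these 2 samples the log2 fold change of Lhx6 was -2.08 and that of Pitx1 -1.74. The part of remaining secretory-stage tissue in these values was not tested. Other LHX probes were low. Lhx8, which acts with Lhx6 in the dental mesenchyme, was detected on no array, nor were Lhx3 and Lhx5, and Pitx3, known from the eye lens, was also undetected. Lhx9 was detected on all 8 arrays without passing (log2 fold change -0.31, adjusted p = 0.0916), and Lhx1 and Lhx4 were detected on 3 and 4 of them.

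The Iroquois family gave the rise next in size to Klf5. Irx3 was at 7.73, 7.92, 7.74 and 8.15 in maturation and 5.65, 5.57, 5.14 and 5.04 in secretion, where it was detected on 3 of 4 arrays. No secretory value came near a maturation value. The rise was 5.81-fold (log2 fold change 2.54, SE 0.154, adjusted p = 2.16e-06), measured against values close to the background. It was 1.85 with an offset of 50 and 1.32 without background correction, still past both thresholds. Irx2 was higher by 0.31 only (8.20 to 8.46 against 7.91 to 8.15, adjusted p = 0.0141; 0.123 without maturation arrays 1 and 4). The detected probe of Irx1 was at -0.26 and did not pass (adjusted p = 0.102; -0.35 and 0.00942 without secretory array 3), and the other Irx1 probe and Irx4 were undetected.

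Meis3 belongs to the TALE homeodomain proteins that bind DNA together with HOX proteins. It measured 7.22, 7.20, 7.37 and 7.13 in maturation and 6.11, 6.35, 6.77 and 6.28 in secretion. All maturation values were higher, with secretory array 3 the nearest. The rise of 1.81-fold (log2 fold change 0.85, SE 0.129, adjusted p = 0.000742) was just inside the fold threshold. It fell short without maturation array 3 (0.81), secretory array 1 (0.77) or secretory array 4 (0.83), with normexp without negative controls (0.74), with an offset of 50 (0.65) and without background correction (0.47), at an adjusted p of at most 0.00323 in each. Meis2 was near background (-0.13).

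Dlx1, a distal-less factor of the jaw and dental mesenchyme, lay at 10.61, 10.70, 10.70 and 10.89 in maturation and 10.92, 10.77, 10.52 and 10.51 in secretion, and the groups overlapped. The difference was 0.05, with a 95% interval from -0.19 to 0.28 that does not reach the fold threshold. With median scaling it was 0.33 (adjusted p = 0.0446). Six3 and Six5, homeodomain factors of another family, differed by 0.08 and -0.08, and Six2, Six4 and Six6 were undetected.

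Of the forkhead factors, Foxo1 was the only one called. Foxo1, which is held out of the nucleus by insulin signalling and acts in stress resistance and metabolism, is named Foxo1a on the array. It was at 9.18, 8.86, 8.94 and 8.85 in maturation and 7.95, 7.86, 7.79 and 7.73 in secretion. The spread in each stage was far smaller than the distance between them. The rise was 2.18-fold (log2 fold change 1.12, SE 0.0876, adjusted p = 1.09e-05). Foxo3, of the same subfamily, was close to the background (5.14 to 5.53 and 4.75 to 5.82), and its difference of 0.10 had a 95% interval from -0.39 to 0.60.

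Foxp1, a repressor known from heart, lung and lymphocyte development, lay just outside the fold threshold. It was at 8.61, 8.72, 8.88 and 8.66 in maturation and 7.70, 8.10, 8.01 and 7.82 in secretion. The groups were well apart (1.76-fold, log2 fold change 0.81, SE 0.0983, adjusted p = 0.000184). The difference was 0.85 without maturation array 1 and 0.88 without secretory array 2, and was then called. Foxd4 was also higher without reaching the threshold (6.34 to 6.70 against 5.64 to 6.02, log2 fold change 0.72, adjusted p = 0.000611). Foxk2 differed by -0.38 (adjusted p = 0.034), but missed the adjusted p in 11 of 19 alternatives, among them median scaling (-0.09, adjusted p = 0.552), cyclic loess (0.0777), normexp (0.0508), the Student test (0.0935) and the fits without maturation array 1, 2 or 4 or secretory array 1, 2 or 3 (0.0646 to 0.0922). Foxd2, detected on 1 secretory array only, was at least 1.06-fold lower (adjusted p = 0.0109; 0.115 without maturation arrays 1 and 4). Foxm1, which drives the entry into cell division, measured 5.60 to 6.11 and 5.82 to 6.10 with a difference of -0.10 (95% interval -0.37 to 0.17). None of the 8 probes of the cell cycle list was called, with 5 of them lower and 1 higher at an adjusted p below 0.05. The FOXA factors, Foxe1 and Foxn1 were among the 14 undetected FOX probes.

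No SOX member was called, and 6 of the 16 probes passed the adjusted p, 3 in each direction. Of all 22523 probes 6051 passed it, and of the 13512 probes detected on at least 1 array 5945 did, so that such a count does not set the SOX family apart. Sox17 and Sox18, known from the endothelium of blood and lymph vessels, were both higher in maturation. Sox17 was at 8.11, 8.41, 8.41 and 8.26 in maturation and 7.27, 7.59, 7.81 and 7.48 in secretion (1.70-fold, log2 fold change 0.76, SE 0.118, adjusted p = 0.000854). Sox18 was at 7.88, 8.10, 8.20 and 7.99 and at 7.13, 7.60, 7.48 and 7.25 (1.60-fold, log2 fold change 0.68, SE 0.113, adjusted p = 0.00139). Neither overlapped between stages. The Sox17 difference was 0.86, and called, without secretory array 3.

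Gata2, which acts in endothelial and blood precursor cells, was higher by 0.39 (6.92 to 7.17 against 6.40 to 6.92, adjusted p = 0.0271; 0.0437 with the rat as a block). It missed the adjusted p in 7 of 19 alternatives, with 0.0556 to 0.0710 without maturation array 1 or 2 or secretory array 1, 2 or 3, 0.0788 by the Student test and 0.150 without maturation arrays 1 and 4. Klf2, induced by blood flow in endothelium, measured 7.16, 7.28, 6.89 and 6.85 in maturation and 6.54, 7.05, 6.88 and 6.47 in secretion, and the stages overlapped. Of the 9 probes of the endothelial marker list, 2 were called, Cldn5 (log2 fold change 1.11) and Vwf (0.88; 0.76, 0.79 and 0.78, and not called, without maturation array 3, secretory array 1 or secretory array 4). In all, 5 were higher at an adjusted p below 0.05 and 0 lower, while Emcn, Tek and 1 of the 2 Tie1 probes did not pass and Cdh5 was detected on no array. The summed linear signal of the list was 7317 to 9251 in maturation and 5409 to 6684 in secretion. The part of endothelial cells in the differences of Sox17, Sox18 and Gata2 was not tested.

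**Figure D4:**
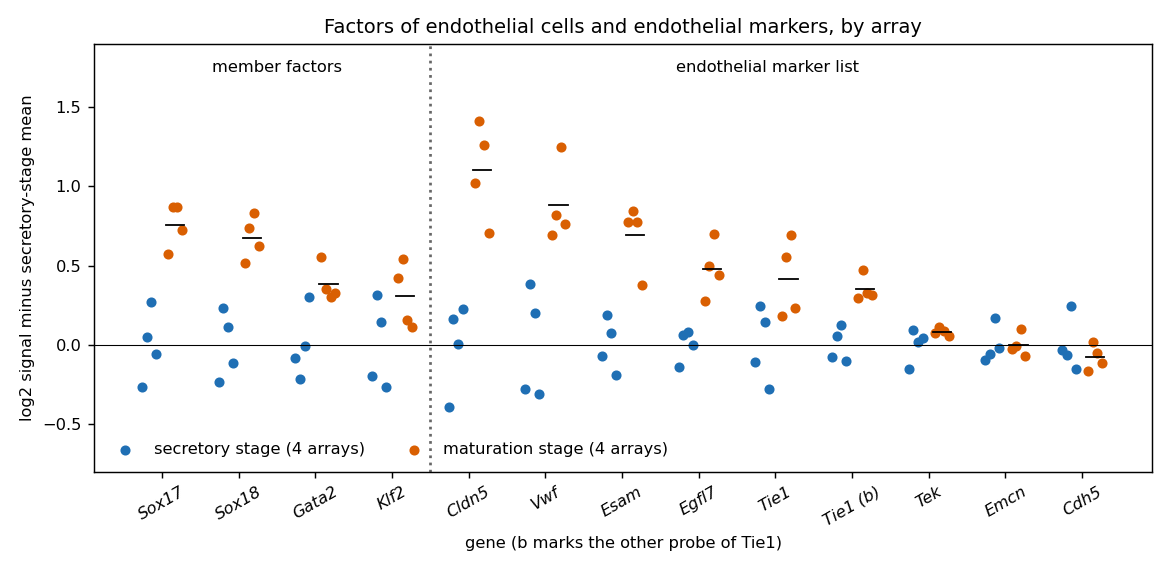
Log2 signal minus the secretory-stage mean of the same probe (vertical axis) for 4 member factors known from endothelial cells and the 9 probes of the endothelial marker list (horizontal axis), with secretory-stage arrays in blue, maturation-stage arrays in orange and black lines at the maturation-stage mean. Sox17 and Sox18 lie wholly above their secretory values, as Cldn5, Vwf, Esam, Egfl7 and the Tie1 probe marked b do. Emcn stays near 0, and so does Cdh5, which was detected on no array and whose level is not measured.

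Sox10, the factor of neural crest derivatives such as Schwann cells and pigment cells, was detected on all 4 maturation-stage arrays (5.64, 5.52, 5.50 and 5.30) and on no secretory-stage array (4.84, 4.88, 4.97 and 4.58). It was at least 1.36-fold higher (fitted log2 fold change 0.67, adjusted p = 0.000688). Sox21, known from hair and tooth epithelium, was lower by 0.51 (5.15 to 5.67 against 5.83 to 6.13, adjusted p = 0.00774; 0.0569 with median scaling), and Sox11, detected on 2 secretory arrays only, was at least 1.06-fold lower (adjusted p = 0.00149). Sox4 was at 7.94 to 8.56 and 7.81 to 8.30 with a difference of 0.13 (95% interval -0.19 to 0.45). Sox9, the cartilage factor that also marks epithelial progenitors, was near background by its brighter probe (4.95 to 5.34 and 4.88 to 5.38, log2 fold change -0.06) and undetected by the other. Sox6 was undetected on all 8 arrays, with signals that nevertheless differed by -0.26 (adjusted p = 0.00865), and no level can be given for it.

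In the T-box family, Tbx15 was called. Tbx15, known from skeletal growth and the dermis, was at 6.62, 6.51, 6.52 and 6.16 in maturation and 5.16, 5.12, 5.06 and 5.0 in secretion, where it was detected on 3 arrays. The groups lay apart, with the secretory values at the edge of detection. The rise was 2.59-fold (log2 fold change 1.37, SE 0.0983, adjusted p = 6.26e-06). It was 0.84 with an offset of 50 and 0.53 without background correction, both under the fold threshold. In the list of fibroblast and dental mesenchyme markers 1 of 10 probes was called, Prrx1, higher by 1.66, with 4 of 10 higher and 1 lower at an adjusted p below 0.05 and a summed linear signal of 53113 to 55507 in maturation and 43164 to 49244 in secretion. The part of mesenchymal cells in the rise of Tbx15 was not tested.

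Tbx1, which is needed for incisor ameloblasts to form, did not pass in the unpaired or the blocked fit. Its values were 9.0, 8.98, 8.54 and 8.72 in maturation and 9.42, 9.02, 8.62 and 8.74 in secretion. In both stages arrays 1 and 2 were the higher ones, and the groups overlapped (log2 fold change -0.14, 95% interval -0.53 to 0.26, adjusted p = 0.685). Within each of the 4 rats the maturation value was the lower one, by small amounts in most, and the adjusted p was 0.341 with the rat as a block. The sign of this difference turned with median scaling (0.22) and without secretory array 1 (0.02). Tbx2 was higher by 0.44 (5.85 to 5.93 against 5.02 to 5.72, adjusted p = 0.0294), with detection on 3 secretory arrays. It missed the adjusted p in 7 of 19 alternatives, with 0.0518 to 0.0742 without any 1 maturation array or secretory array 2, 0.0906 by the Student test and 0.150 without maturation arrays 1 and 4. Tbx3, Tbx5, Tbx6, Tbx19, Tbx20 and Tbx21 were undetected.

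Pax9, a paired-box factor of the dental mesenchyme, was at 5.50, 5.27, 5.44 and 5.39 in maturation and 5.49, 5.85, 5.72 and 5.87 in secretion. Secretory array 1 fell within the maturation values. The difference of -0.33 (SE 0.0936) had an adjusted p of 0.0243, and 0.0592 with the rat as a block. It missed the threshold in 11 of 19 alternatives, with 0.0503 to 0.0720 without maturation array 2 or 4 or secretory array 2, 3 or 4 and 0.179 with median scaling. Pax4, known from the pancreas, was detected on all 8 arrays and differed by 0.09. Pax1, Pax2, Pax6 and Pax8 were undetected, among them Pax2 with signals that differed by 0.16 (adjusted p = 0.0462; 0.0973 with the rat as a block).

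The HOX genes set position along the body axis, and the first pharyngeal arch, from which the jaws and their teeth form, is known for lacking HOX expression. Of the 21 HOX probes, 17 were detected on no array. Hoxc4, Hoxb1 and the probe named Hoxc8 were detected on all 8, and Hoxd4 on 2 maturation-stage arrays. Hoxc4 was at 7.52, 7.54, 7.60 and 7.26 in maturation and 8.02, 7.84, 7.84 and 7.97 in secretion. The stages did not overlap, and the difference was -0.44 (SE 0.0852, adjusted p = 0.00355), which is under the fold threshold. With median scaling it was -0.11 (adjusted p = 0.328) and no longer passed. Hoxb1 (5.01 to 5.62 and 5.46 to 5.78) and the Hoxc8 probe (5.27 to 5.56 and 5.30 to 5.76) overlapped between stages. The gene ID of the Hoxc8 probe now carries the symbol Hoxc9, so that its gene is uncertain.

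Several members that define other cell types were not detected on any array. They included Gata1 of red cells and Gata3 of T cells and many epithelia, Gata4 and Gata6 of heart and gut, Foxp3 of regulatory T cells and Tbx21 of T helper cells. In the list of macrophage and leukocyte markers, by contrast, 7 of 12 probes were called, all higher in maturation, with a summed linear signal of 10882 to 14000 against 4033 to 4770. Klf4, Klf2 and Foxp1 are also expressed in leukocytes, and the part of these cells in their values was not tested.

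Proteins that bind these factors were read from a fixed list of 36 partner and co-regulator genes, of which 26 were on the array with 28 probes. Only Gmnn, whose product geminin binds HOX proteins and Six3 and restrains DNA replication, was called, with a rise of 1.27 (SE 0.0975, adjusted p = 9.78e-06). That is 1 of 28 probes (3.57%), against 7.75% of all probes. At an adjusted p below 0.05, 5 were higher and 9 lower. Among the lower ones were the Groucho co-repressors Tle4 (-0.82) and Tle3 (-0.70), the GATA cofactor Zfpm2 (undetected in maturation, at least 1.67-fold lower), the deacetylase Hdac2 (-0.74), and Ldb1 (-0.51) and Ldb2 (-0.42), which bridge LIM-homeodomain proteins. The higher ones were, besides Gmnn, Lmo4 (0.56), Aes (0.55), Tle2 (0.41) and Eya2 (undetected in secretion, at least 1.05-fold higher). Without 1 array some came to pass the fold threshold, namely Tle4 (-0.90 without maturation array 3 and -0.87 without secretory array 4), Zfpm2 (fitted -0.96 without secretory array 3) and Hdac2 (-0.89 without maturation array 1). The PBX proteins, partners of HOX and MEIS, did not pass (Pbx3 0.27, adjusted p = 0.162).

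**Figure D5:**
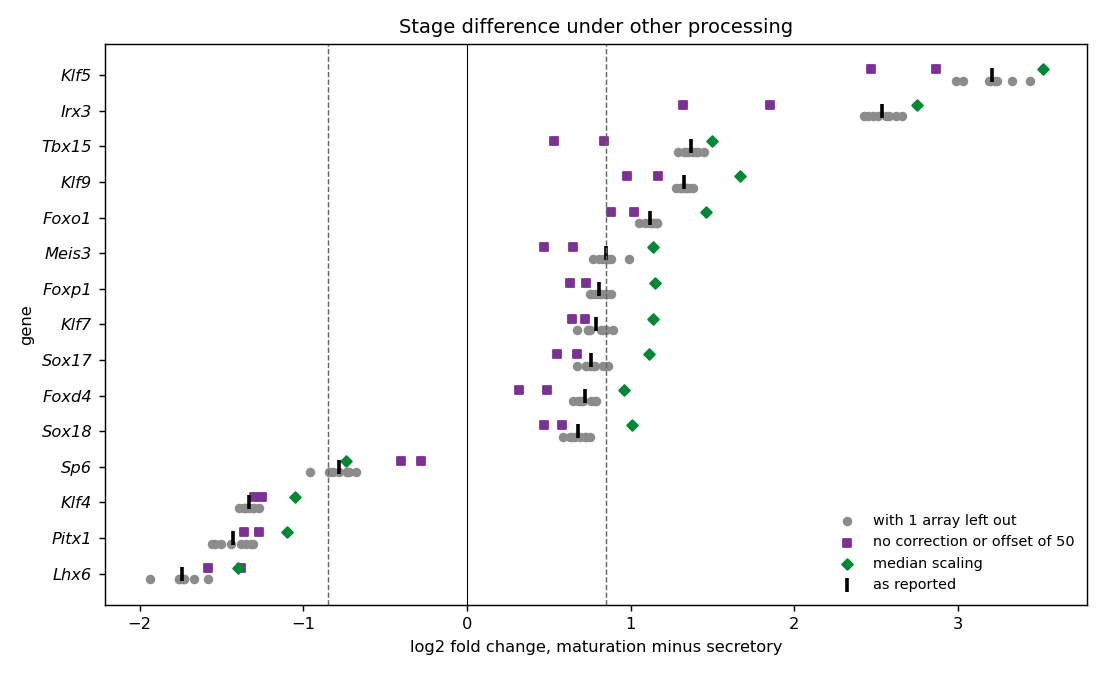
Log2 fold change (maturation minus secretory, horizontal axis) of the 9 called members and of Foxp1, Klf7, Sox17, Foxd4, Sox18 and Sp6 (vertical axis) as reported (black), with each array left out in turn (grey), without background correction or with an offset of 50 (purple) and with median scaling (green); dashed lines mark the 1.8-fold threshold. The values of Klf5, Irx3, Klf9, Foxo1, Klf4, Pitx1 and Lhx6 stay beyond the threshold throughout, whereas those of Tbx15, Meis3, Foxp1, Klf7, Sox17, Foxd4, Sox18 and Sp6 lie on both sides of it.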

How the data were processed

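Total RNA of secretory- and maturation-stage enamel organs was hybridized to 1-colour RatRef-12 v1 arrays. The authors deposited mean bead signals as raw intensity, and beside each a detection p-value, the bead number and the standard error over beads; the summarising software and genome build are not given in the sources used here. Groups follow titles, descriptions and tissue labels.

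In R 4.3.3 with limma 3.58.1, background correction and quantile normalization were done by neqc (offset 16, negative controls inferred from the detection p), with log2 values as output. The 22523 probes were fitted with lmFit and eBayes, unpaired. Tables used Python 3.11.15 and pandas 2.3.3. On simulated log2 values of 22523 probes, limma called 93% of 100 probes changed by 1 and 99% of 100 changed by 2, and 0 unchanged probes. These values were drawn around each probe's normalized mean with its spread within stages, and the changed probes were drawn whether detected or not. Background correction and quantile normalization were not simulated, so these shares describe the fit and the thresholds only, not the recovery of changes near the background.

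Undetected means that none of the 4 arrays of a stage had a detection p below 0.05. The bound of such a fold uses, per array, the higher of the probe's own value and the lowest value of a detected probe. Symbols are those of the array; by gene ID, 121 of the 127 probes matched a gene table of GRCr8, 2 of them (Hoxc8 and Sox30) under another gene's symbol. Chromosomes and probe positions of the array were not used.

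Each rat gave both stages, so replicate numbers mark pairs. Deviations from the stage means (11233 probes detected on 4 or more arrays) correlated at 0.195, 0.129, 0.219 and 0.234 within rats 1 to 4, and at -0.0833 to -0.0426 on average between rats. The rat as a block was used in another fit.

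Members and lists were chosen with earlier results of these data known. Values per array were planned for called members without overlap and for a fixed list of members known from teeth; any member may be named. Those of Klf7, Foxp1, Sox17, Sox18, Sox10, Klf2 and Hoxc4 were added after their values were seen. Other alternatives were median scaling, cyclic loess, normexp without negative controls, an offset of 50, uncorrected signals, only probes detected on 4 arrays, the methods' Student test, an adjusted p below 0.01, bounds in place of fitted folds, and each array left out. Leaving out maturation arrays 1 and 4 together was added after seeing the data. Marker lists were endothelium, erythroid and blood, macrophage and leukocyte, odontoblast and osteoblast, fibroblast and dental mesenchyme, skeletal muscle, secretory ameloblast, maturation ameloblast, epithelium, cell cycle, and oral and tooth epithelium regulators. Results of some genes are not reported here.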

Additional observations from a re-analysis of the deposited data

Results flagged for a closer look

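In maturation-stage sample 4 the brighter Sox9 probe measured 5.34 (log2), apart from the 4.95 to 5.0 of the other maturation-stage samples, with a gap of 0.86 of the range. Of 60 sets of 4 values tested in this way, 1 stood out, where chance gives about 3.0.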

How the results depend on the processing

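Of the 9 called members, Klf5, Irx3, Klf9, Foxo1, Klf4, Pitx1 and Lhx6 stayed called in each alternative that was run, and Tbx15 and Meis3 did not. The number of called members was 8 with normexp, 7 without background correction and with an offset of 50, 11 with cyclic loess, 8 to 11 with each array left out (5 to 8 of them higher and 3 to 4 lower), 11 without maturation arrays 1 and 4, and 14 with median scaling. Median scaling also gave 11 members higher in maturation and 51 members without overlap between the stages, where quantile normalization gave 6 and 28. Pairing the samples, with the rat as a block, left 9 members called, 6 higher and 3 lower, and 1 partner probe. Partner probes called were 1 to 2 with each array left out. Over 32 named members, 575 of 605 values under alternatives kept their direction and their call (both thresholds together), 8 lost the call, 14 gained it and 8 turned in sign. The threshold on the adjusted p alone was crossed by 45 values of 12 members, none of them called, with 41 lost and 4 gained. The 8 that turned were of members that were not called, namely Tbx1 (0.22 with median scaling, 0.02 without secretory array 1), Dlx1 (-0.01 without maturation array 4, secretory array 3 or secretory array 4), Foxo3 (-0.04 without secretory array 1, -0.02 without secretory array 4) and Sox9 (0.02 without secretory array 2). With each array left out, their ranges were -0.25 to 0.02 for Tbx1, -0.01 to 0.13 for Dlx1, -0.04 to 0.33 for Foxo3 and -0.15 to 0.02 for Sox9. The cause was not tested. Signals of the 67 undetected members bound their levels only.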

Other observations

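Another 28 probes carry array symbols outside these families while their gene IDs now name family members. None of them was called with limma, and 17 were detected on no array, among them Sox2, the factor of incisor epithelial stem cells. Dlx6 was detected on all 4 secretory-stage arrays and on no maturation-stage array, and was at least 1.28-fold lower in maturation (adjusted p = 0.000139). Foxi3, a forkhead factor of ectodermal organs such as hair and teeth, was likewise detected in the secretory stage only, and was at least 1.47-fold lower in maturation (adjusted p = 0.000867). Irx5 was detected on all 8 arrays and differed by 0.27 (adjusted p = 0.019), and Klf13 by 0.26 (adjusted p = 0.331).

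Among regulators of oral and tooth epithelium outside the rule, Dlx5 and the brighter Satb1 probe fell in maturation (log2 fold changes -1.58 and -2.63). Trp63 was higher by 0.42 (adjusted p = 0.0069), and Dlx2, Dlx3 and Msx2 did not pass (0.22, -0.08 and -0.20).

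Other marker lists gave, of their probes, 2 higher and 1 lower called of 9 for odontoblast and osteoblast, 1 lower of 7 for skeletal muscle, 3 lower of 5 for secretory ameloblast, 5 higher of 6 for maturation ameloblast, and 2 higher and 1 lower of 4 for epithelium. Of the epithelium list Dsp and Cldn1 rose, by 1.5 and 1.12, while Cdh1 fell by 1.17.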
